A study of Homo sapiens with 54 samples.

Results

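MKN-45 is an established line grown from a human stomach cancer, and its 3 untreated libraries were set against the untreated libraries of 5 other cancer lines. They were chosen by line and treatment label alone, as 3 of 54 libraries in the series and 3 of 18 untreated libraries of its second set. The other lines were the colorectal lines SW48 and SW620, the second stomach line NCI-N87, and the breast lines BT-20 and BT-474, with 3 control libraries each. Every line had been grown in DMEM with 10% FBS and antibiotics, and the control label gives no vehicle. Other libraries of the study came from the same lines with a drug: afatinib for MKN-45, NCI-N87 and the breast lines, and trametinib or palbociclib for the colorectal lines. Each group was a single line, so a difference between MKN-45 and another line cannot be told apart from a difference between any 2 tumour lines. Nothing states that the 3 libraries of a line came from separate cultures, so the p-values measure the spread between these libraries, which may be technical.

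Stomach surface cells make gel-forming mucus, and the enzymes that build sugar chains on mucins, the junction proteins that seal the cell sheet and a set of gut transcription factors belong to that identity. MET is the receptor for hepatocyte growth factor, which drives growth and cell movement, and MKN-45 is widely used as a stomach line with extra copies of the MET gene. A cancer line can also differ from its peers where stretches of a chromosome are gained or lost, since neighbouring genes then change together. DNA was not measured in these samples.

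RNA was counted from the 3′ ends of transcripts. Levels are given as CPM, counts relative to the library total after scaling of the libraries with TMM, and are compared between lines and not between genes. A gene is called apart where its fitted level in MKN-45 lay on the same side of each of the 5 other lines and the largest of the 5 p-values, adjusted by Benjamini and Hochberg over all genes in edgeR's two-sided quasi-likelihood test, was under 0.05. The difference from the nearest other line is the log2 fold change against the line closest to MKN-45, the smallest of the 5.

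Of 15211 genes tested, MKN-45 stood apart from all 5 lines as the higher one in 853 genes, which is 5.61% of those tested, and as the lower one in 747, which is 4.91%. Of these, 344 (2.26%) were at least 2-fold higher and 322 (2.12%) at least 2-fold lower than in the nearest line. In 836 of the 853 and 728 of the 747 genes, no MKN-45 library overlapped any of the 15 others. These genes were called apart on the same libraries, so the call itself largely fixes this separation. The share without overlap over all genes tested is not given. Against the mean of the 5 lines, each line weighted equally, 5209 genes (34.2%) were higher and 4400 (28.9%) lower, with a median log2 fold change over all genes of −0.01. The other lines, each taken in the same way against its 5 peers, had 720 to 1156 genes apart higher and 509 to 1009 apart lower.

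The libraries of MKN-45 held 5765453 to 7506159 counts, within the 5106615 to 12806042 of all 18. Pearson's r of log2 CPM across genes was 0.981 to 0.989 between them and 0.810 to 0.879 with the other lines. NCI-N87 control 1, the shallowest library, lay nearer to MKN-45 (mean r 0.878) than the other two NCI-N87 libraries (0.853 and 0.855). Without it 980 genes were apart higher and 829 lower. The stomach label was checked against 19 stomach markers: 12 were detected in all 3 MKN-45 libraries, and MUC6, MUC17, CAPN9 and GAST had no count. Their summed level, in CPM without TMM, was 417 to 469 in MKN-45, 208 to 370 in NCI-N87 and 357 to 399 in the breast line BT-474, so the sum was highest in MKN-45 but lay close to that of a breast line. Of 16 blood and immune markers, 9 were at 0 in MKN-45, PTPRC, CD3E and CD14 among them, and the sum of 20.6 to 36.5 CPM was mostly LYZ, lysozyme, at 17.5 to 32.5 CPM. LYZ was the 1 apart higher of the 5 tested. Of 12 fibroblast markers PDGFRA and FAP were at 0 and 5 were detected in all 3 libraries, with a sum of 15.3 to 50.2 CPM, most of it COL1A1 (11.4 to 28.9 CPM). COL1A1 and COL1A2 were highest in MKN-45 control 3, at 28.9 and 7.19 CPM, with COL1A2 at 1.60 and 1.21 CPM in its companions. The fibroblast sum was 21.7 to 59.4 CPM in NCI-N87, 41.6 to 48.5 in BT-20 and 33.3 to 34.9 in BT-474. It was 15.6 to 16.5 CPM in SW48 and 16.3 to 23.1 in SW620, so the highest sum was not in MKN-45. Of 6 fibroblast markers tested 3 were called higher against the mean of the lines, none lower and none apart, with a median log2 fold change of 2.18. The part of such cells in the results was not tested.

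**Figure D1:**
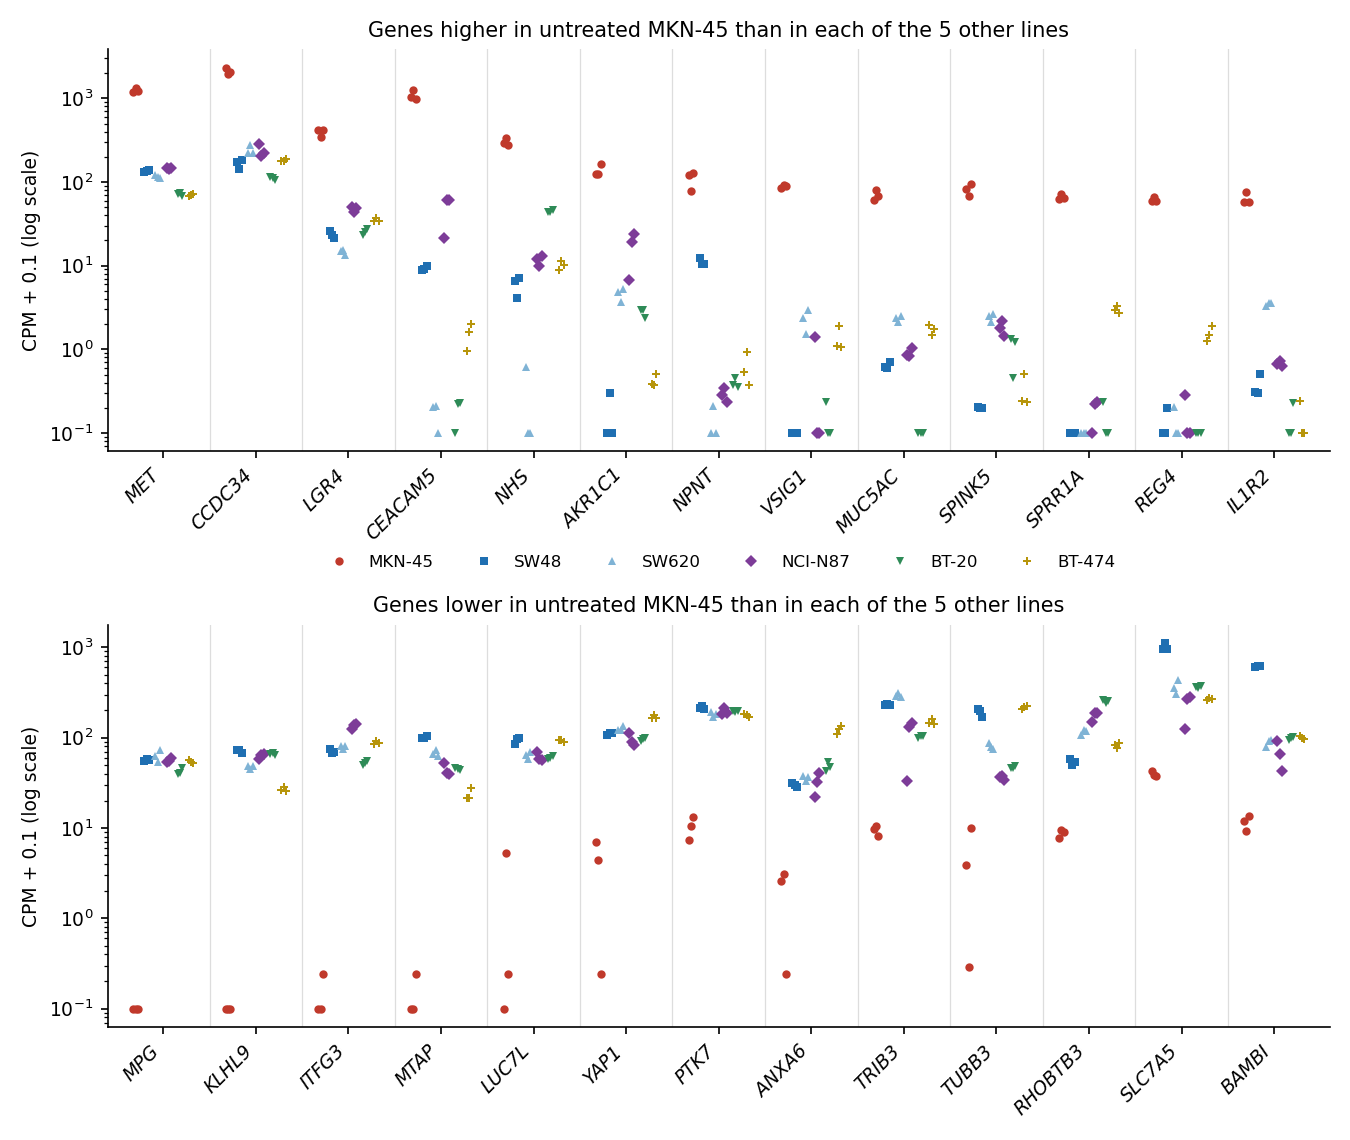
CPM plus 0.1 on a log axis in each of the 18 untreated libraries, 1 point per library and 1 colour per line, for genes apart higher (top) and lower (bottom) in MKN-45. In MET the MKN-45 points lie above every other point and in MPG and KLHL9 at a count of 0.

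The receptor tyrosine kinases are described first because MET heads them. MET (chromosome 7, 116672196 to 116798377, GRCh38) stood at 1202, 1319 and 1218 CPM in the 3 MKN-45 libraries, 1246 ± 63.5 (SD, n = 3). The highest other library was an NCI-N87 library at 148.6 CPM, and the lowest a BT-474 library at 68.7 CPM. MKN-45 was 8.52-fold higher than the nearest line, NCI-N87, with a log2 difference of 3.09 (adjusted p = 3.18e-15). MST1R, the MET relative that binds macrophage-stimulating protein, stood at 35.4, 40.0 and 38.5 CPM against at most 20.7 CPM in any other library. It was 1.94-fold above NCI-N87 (adjusted p = 2.84e-04). LTK, a kinase related to ALK, stood at 10.5, 7.82 and 9.28 CPM in MKN-45, at 2.81 to 4.58 CPM in NCI-N87 and at most 0.36 CPM in the other lines (2.504-fold above NCI-N87, adjusted p = 0.00764). Without MKN-45 control 1 that adjusted p was 0.064.

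PTK7, a receptor with an inactive kinase domain that takes part in planar cell polarity and WNT signalling, was the only receptor of this list that was apart lower. It stood at 7.20, 10.4 and 13.1 CPM in MKN-45 and between 168.9 and 224.3 CPM in all other libraries. It was 17.2-fold lower than in the nearest line, BT-474 (adjusted p = 2.45e-13). In the second set's controls the 5 other lines thus lay close together and MKN-45 far below them. With all of the first set's SW48 and SW620 controls, described at the end, PTK7 was not apart. Without SW620 control 3 of that set it was. Of the 30 receptors tested, these 4 were apart, 3 higher and 1 lower, and the median of the list was −0.04.

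The targets of afatinib were not apart in MKN-45. ERBB2, which encodes HER2, stood at 88.7, 86.0 and 93.8 CPM in MKN-45, near SW48 (90.6 to 102.8) and BT-20 (102.5 to 114.2) and far below NCI-N87 and BT-474, whose lowest library held 1131 CPM. EGFR stood at 27.1, 37.3 and 30.5 CPM, overlapping NCI-N87 at 23.2 to 42.3 CPM. ERBB3 stood at 92.6 to 104.9 CPM in MKN-45, between BT-20 and SW620. Of the 8 EGF family ligands tested none was apart. Of 27 genes of MET signalling tested 5 were apart, all higher: MET, MST1R, CD44, a cell surface receptor that can act as a MET partner, PTPRJ, a phosphatase, and STAT3, a transcription factor activated downstream. PTPRJ lost its call without MKN-45 control 3, NCI-N87 control 1 or SW620 control 1 or 3 (adjusted p 0.0644 to 0.175). CD44 stood at 332.8 to 382.3 CPM against 208.4 to 230.3 in BT-20, the nearest line (adjusted p = 9.22e-06). The median of the MET signalling list was 0.01, and 9 members were called higher and 11 lower against the mean of the lines. HGF, the ligand of MET, was too low to be tested. In the 22 genes of MEK and ERK output the only member apart was DUSP5, an ERK phosphatase, which was lower. Against the mean of the lines 12 of the 22 were called higher and 5 lower, with a median of 0.62. In the afatinib libraries, compared with 3 other lines, 11 of the 22 were apart higher and 1 lower.

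**Figure D2:**
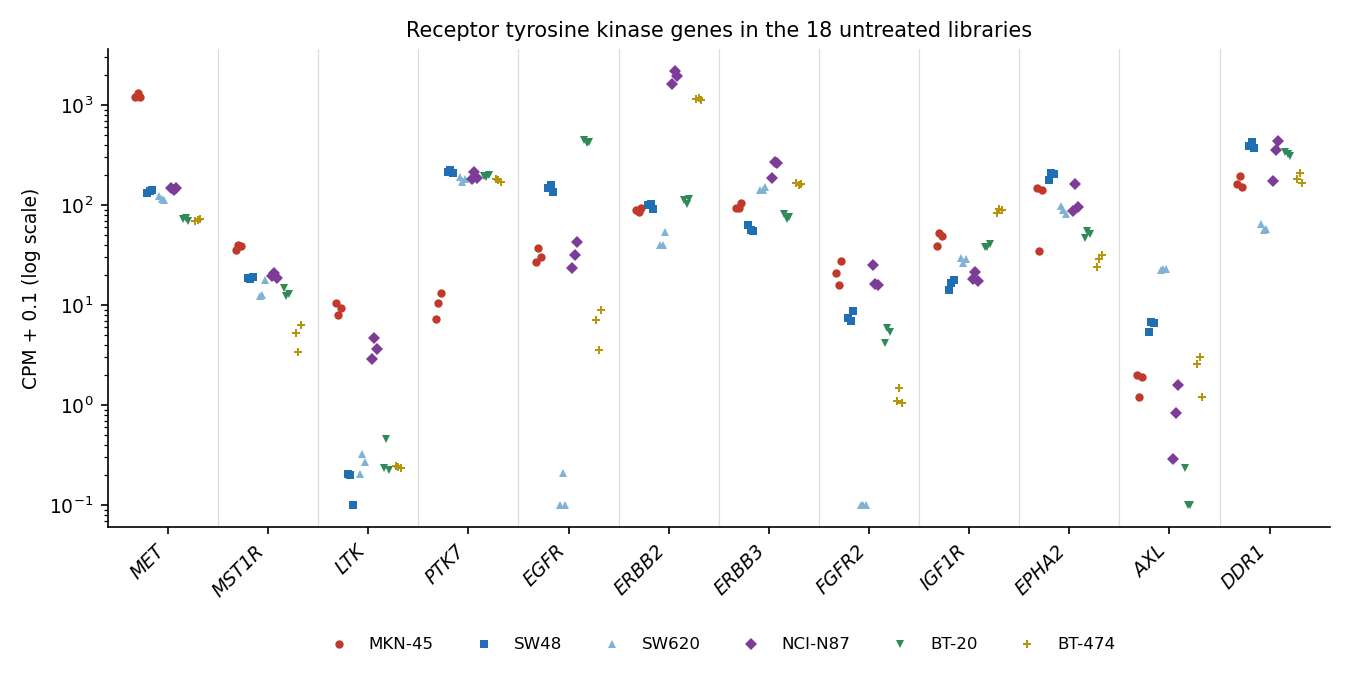
CPM plus 0.1 on a log axis for 12 receptor tyrosine kinase genes in the 18 untreated libraries, 1 point per library. MET is high and PTK7 low in MKN-45 alone, while ERBB2 is high in NCI-N87 and BT-474 and EGFR in BT-20.

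The genes with the largest difference from the nearest line included several of stomach and other surface epithelia. REG4, a secreted lectin of the gut, stood at 59.3, 65.7 and 59.5 CPM in MKN-45 and at most 1.78 CPM elsewhere, which is 42.2-fold above BT-474 (adjusted p = 2.17e-10). VSIG1, a junction protein of stomach epithelium, stood at 84.0, 91.6 and 89.4 CPM against at most 2.83 CPM (39.5-fold above SW620, adjusted p = 5.63e-09). MUC5AC, the gel-forming mucin of the stomach surface, stood at 60.9, 80.8 and 68.6 CPM against at most 2.40 CPM (31.1-fold above SW620, adjusted p = 4.06e-12). In the second stomach line, NCI-N87, no library held more than 1.31 CPM of any of these 3. CEACAM5, which encodes carcinoembryonic antigen, stood at 1033, 1264 and 972.8 CPM. It reached 21.3, 60.2 and 61.4 CPM in NCI-N87, the nearest line, which is 22.6-fold lower (adjusted p = 3.72e-10). Its relative CEACAM6 differed less: 171.2 to 202.0 CPM against 110.2 to 147.5 CPM in NCI-N87.

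Other genes of the same rank have roles outside the stomach. SPINK5, a serine protease inhibitor of skin, stood at 83.1, 68.5 and 94.1 CPM against at most 2.57 CPM. SPRR1A, a precursor of the cornified envelope, stood at 62.3, 71.3 and 64.1 CPM against at most 3.17 CPM. IL1R2, a decoy receptor for interleukin 1, stood at 58.4, 76.4 and 57.4 CPM against at most 3.51 CPM. NPNT, a matrix ligand of integrins, stood at 121.3, 78.6 and 126.8 CPM against at most 12.1 CPM, the latter in SW48. AKR1C1, an aldo-keto reductase of steroid metabolism, stood at 123.6 to 166.2 CPM against at most 23.6 CPM, and its count is uncertain because AKR1C2 is nearly identical. All 5 were apart without overlap.

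Of 14 tested stomach markers 4 were apart higher and none lower: MUC5AC, VSIG1, CLDN18, the tight junction protein of stomach, and CTSE, the protease cathepsin E. The list's median log2 fold change was 4.20, and 10 members were called higher and 1 lower against the mean of the lines. Some markers that were not apart stood higher in another line, here in CPM without TMM. PSCA stood at 2.43 to 3.49 CPM against 29.0 to 69.5 in NCI-N87. ANXA10 stood at 11.2 to 12.8 CPM against 33.5 to 43.5 in NCI-N87. TFF1 stood at 41.2 to 44.5 CPM against 297 to 322 in BT-474. CLDN18 stood at 11.1, 10.99 and 10.8 CPM and CTSE at 21.8, 20.5 and 20.9 CPM, against at most 0.81 and 4.49 CPM. Intestinal markers had nearly the same median, 4.20, with 9 of 12 tested called higher and 1 lower against the mean of the lines. Their summed level, in CPM without TMM, was 288 to 296 in MKN-45. That lay below NCI-N87 (314 to 376) and BT-474 (480 to 560), while SW48, SW620 and BT-20 held at most 254 CPM. The intestinal markers apart higher were PHGR1 and FABP1, and none was apart lower. PHGR1, a small protein of intestinal epithelium, stood at 74.7, 81.4 and 77.2 CPM against at most 20.4 CPM. FABP1, a fatty acid carrier, lost its call without MKN-45 control 1 or 3, SW620 control 1 or 3, or any 1 BT-474 control (adjusted p 0.0537 to 0.199), and with a replicate block (0.128). Of 21 tested mucus and secretory granule genes 7 were apart higher and none lower, with a median of 3.76. Beside REG4 and MUC5AC these were SPINK4, a goblet cell inhibitor, LYZ, lysozyme, FCGBP, a mucus binding protein, and the disulfide isomerases AGR2 and AGR3. SPINK4 stood at 16.2 to 17.7 CPM and was at 0 in all libraries of SW48, SW620 and BT-20. AGR2 stood at 367.3, 259.8 and 350.5 CPM against 102.8 to 109.3 CPM in BT-474 and at most 21.7 CPM elsewhere.

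Of 25 tested genes of a list for mucin-type sugar chains 8 were apart higher, 1 lower and 16 neither, with a median of 1.85. Only 1 was apart with the first set's SW48 and SW620 controls, described at the end. GALNT1, which starts O-linked chains, stood at 341.2, 353.3 and 331.0 CPM against at most 159.2 CPM. C1GALT1, which extends the first sugar, stood at 89.7, 86.6 and 93.6 CPM against at most 49.8 CPM. ST6GALNAC1, GALNT14, B3GNT3, FUT4, FUT8 and ABO were the other members apart higher. FUT8 acts on N-linked chains and not on the O-linked chains of mucins. FUT1, a fucosyltransferase, was lower at 2.66 ± 1.06 CPM (SD, n = 3) against at least 6.53 CPM in line means. FUT1 lost its call without MKN-45 control 1 or without BT-474 control 1 or 2 (adjusted p 0.0511 to 0.110).

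Among 35 tested gut transcription factors 7 were apart higher and none lower, 27 were called higher against the mean of the lines and none lower, and the median was 1.51. SOX21 stood at 14.4, 6.15 and 16.7 CPM and BARX1, which patterns the embryonic stomach, at 10.6, 12.9 and 9.84 CPM, while no other library exceeded 0.74 CPM in either gene. CREB3L1, a factor of secretory cells, stood at 111.3, 113.2 and 103.9 CPM against at most 37.7 CPM. PPARG and EHF were apart by less, and NR5A2 (4.54, 4.84 and 3.80 CPM) lost its call without any 1 of the MKN-45 or BT-20 libraries (adjusted p 0.0564 to 0.135). CDX2, the intestinal master factor, was not apart: 64.8 to 66.1 CPM in MKN-45 lay between SW620 and SW48.

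Genes of dividing cells were higher too. Of 29 tested members 10 were apart higher and none lower, 23 were called higher against the mean of the lines and none lower, and the median was 0.70. MKI67, the proliferation antigen, stood at 729.1, 794.3 and 671.3 CPM against at most 448.6 CPM, that of NCI-N87 control 1 (2.07-fold above NCI-N87, adjusted p = 4.09e-06). CENPE, a mitotic motor, stood at 218.2, 198.9 and 193.2 CPM against at most 125.8 CPM in that same library. CCNA2, PLK1, BUB1, BUB1B, KIF11, MCM3, RRM2 and CCNE1 were the others, and CCNE1 lost its call without SW48 control 3 (adjusted p = 0.0517) or MKN-45 control 2 (0.0541). The cultures' density at harvest is not given, and its part in these differences was not tested.

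**Figure D3:**
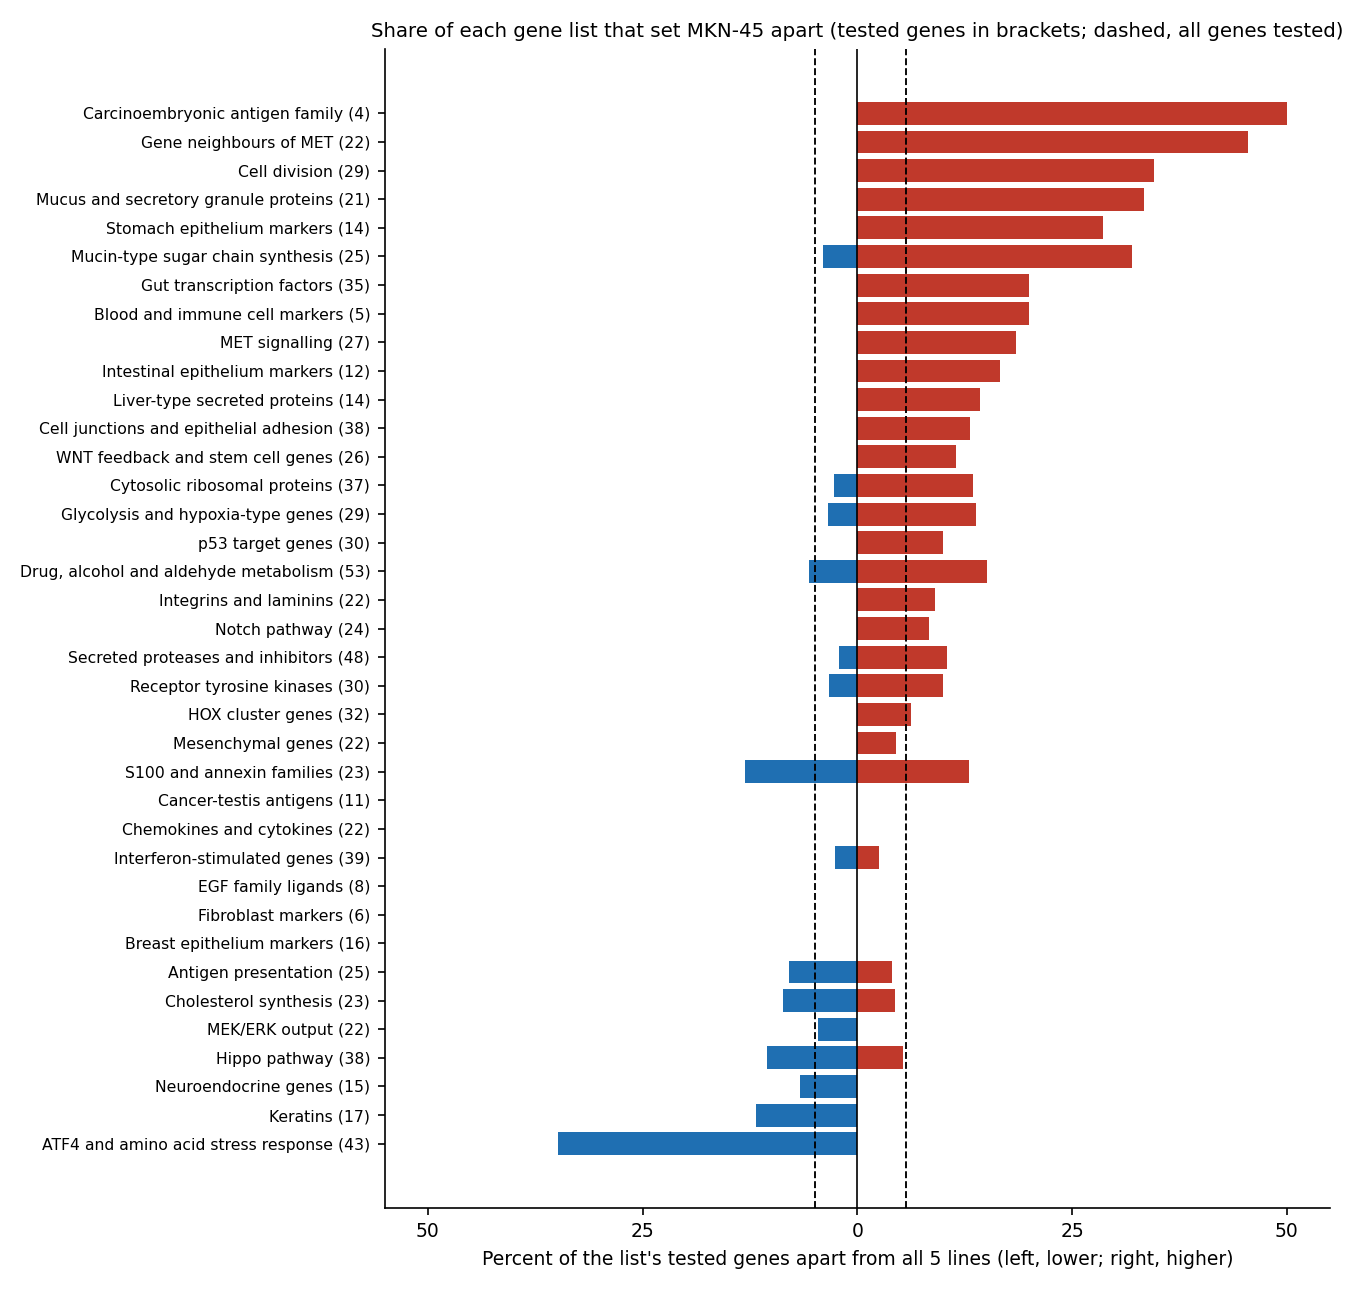
Percent of the tested genes of each list that were apart higher (right, red) or lower (left, blue) in MKN-45, with the number tested in brackets. Dashed lines mark the share over all genes tested, 5.61% higher and 4.91% lower. The carcinoembryonic antigen bar rests on 4 tested genes. The ATF4 and Hippo lists were drawn up after the values had been seen.

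Among the lists, the largest share of genes apart lower was in the response to amino acid shortage and unfolded protein, in which the transcription factor ATF4 turns on amino acid transporters, synthesis enzymes and tRNA charging enzymes. This list of 44 genes was put together after the values had been seen, so its rank among the lists is partly set by that choice. Of 43 tested, 15 were apart lower and none higher, 34 were called lower against the mean of the lines and 1 higher, and the median was −1.44. TRIB3, a pseudokinase induced by ATF4, stood at 9.70, 10.4 and 8.01 CPM against 98.7 CPM or more in every other library except NCI-N87 control 1 at 33.1 CPM. It was 10.98-fold lower than in BT-20, the nearest line in the fit (adjusted p = 1.24e-06). ATF4 itself stood at 187.2, 200.8 and 171.4 CPM against at least 358.9 CPM, a 2.52-fold difference from BT-20 (adjusted p = 2.75e-05).

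The transporters of large amino acids were lower as a pair. SLC7A5 stood at 42.6, 38.6 and 37.4 CPM, against 125.4 CPM in NCI-N87 control 1 and 262.9 CPM or more in BT-474, BT-20, SW620 and SW48 (5.74-fold below NCI-N87, adjusted p = 1.16e-07). Its partner chain SLC3A2 stood at 109.9, 107.1 and 118.7 CPM against at least 282.8 CPM (3.73-fold below BT-474, adjusted p = 6.47e-07). Among the enzymes PHGDH and PSAT1, which make serine, stood at 43.0 to 56.8 and 59.4 to 88.0 CPM, against at least 77.7 and 124.3 CPM elsewhere. PCK2, the mitochondrial PEPCK, stood at 14.7, 13.2 and 11.1 CPM against at least 23.2 CPM. ASNS, asparagine synthetase, stood at 57.1, 63.3 and 46.3 CPM and overlapped NCI-N87 control 1 at 55.02 CPM. CHAC1, a glutathione-degrading enzyme, stood at 7.36, 16.4 and 9.42 CPM and overlapped the same library at 12.7 CPM.

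The transcription factors DDIT3, CEBPB and ATF3, the folate enzyme MTHFD2 and the tRNA synthetases AARS and EPRS completed the 15. DDIT3, known as CHOP, stood at 11.7, 20.5 and 12.2 CPM against at least 30.7 CPM. In 12 of the 15, which were called apart on the same libraries, no library overlapped. The other 3 (CHAC1, ASNS and MTHFD2) overlapped NCI-N87 control 1 alone. Without that library 19 members were apart lower, and without NCI-N87 control 2 or MKN-45 control 3 the number was 14. The media change, glucose and cell density before harvest are not given, and their part was not tested. Members of the list that were not apart included SLC7A11, the cystine transporter, at 30.1 CPM on average against 39.1 CPM in BT-474, and ATF5 and STC2, for which MKN-45 lay among the other lines.

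RefSeq promoter windows of GRCh38.p14, from 250 bases before to 50 after each start, were searched on both strands for TGATGNAA, the core of the element that ATF4 binds with its CCAAT-binding partners. It was present in 3.62% of all 35116 windows and in 4.46% of the 27305 gene symbols with a window. Windows were matched for 13 of the 15 genes, and ASNS, ATF3, CHAC1 and SLC3A2 held it. Over the whole list 28 of the 43 tested genes were matched and 10 held it, SLC1A5 and FGF21 among them, which were not apart. A match is a description of letters and not of a bound site. The 250 bases before the start are shown for the 3 genes whose match lies before it, with the match in capitals; in CHAC1 it lies on the opposite strand.

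ASNS chr7:97872409-97872658 (minus strand): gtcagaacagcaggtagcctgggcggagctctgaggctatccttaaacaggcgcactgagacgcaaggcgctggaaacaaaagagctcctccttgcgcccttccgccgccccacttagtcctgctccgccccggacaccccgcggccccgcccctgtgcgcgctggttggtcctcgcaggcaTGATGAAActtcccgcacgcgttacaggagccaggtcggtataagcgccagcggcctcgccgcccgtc
ATF3 chr1:212565157-212565406 (plus strand): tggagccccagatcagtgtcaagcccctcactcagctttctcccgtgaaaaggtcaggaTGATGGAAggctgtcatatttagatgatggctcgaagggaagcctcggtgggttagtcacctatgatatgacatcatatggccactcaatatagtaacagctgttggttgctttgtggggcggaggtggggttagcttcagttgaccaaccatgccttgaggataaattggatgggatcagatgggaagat
CHAC1 chr15:40953221-40953470 (plus strand): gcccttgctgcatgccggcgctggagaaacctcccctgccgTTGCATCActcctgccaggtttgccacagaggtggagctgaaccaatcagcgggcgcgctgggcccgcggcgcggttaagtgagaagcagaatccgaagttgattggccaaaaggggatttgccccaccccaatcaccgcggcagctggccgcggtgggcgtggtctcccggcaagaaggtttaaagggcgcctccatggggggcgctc

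**Figure D4:**
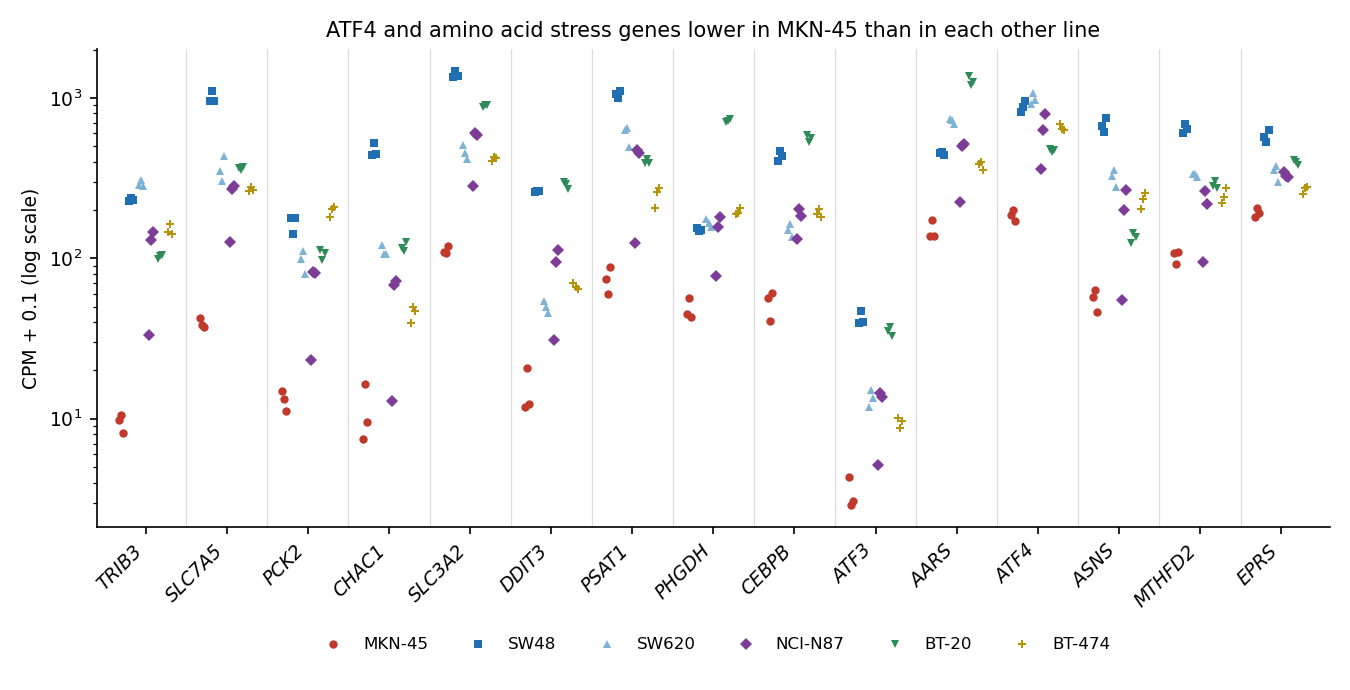
CPM plus 0.1 on a log axis for the 15 genes of the ATF4 list that were apart lower in MKN-45, 1 point per library, ordered by the difference from the nearest line. The MKN-45 points lie below all others except in CHAC1, ASNS and MTHFD2, where NCI-N87 control 1 lies among them.

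YAP1, the transcriptional partner that the Hippo kinases hold in check, stood at 6.89, 4.28 and 0.14 CPM in MKN-45 (3.77 ± 3.40 CPM, SD, n = 3; chromosome 11, 102110447 to 102233424). No other library was below 83.2 CPM, and the fold against NCI-N87 was 26.0 (adjusted p = 1.55e-08). Its paralogue WWTR1, which encodes TAZ, was the reverse, at 54.8, 52.3 and 55.3 CPM against 41.4 to 43.2 CPM in NCI-N87, the nearest line (1.28-fold, adjusted p = 0.0126). Without a filter on low counts that adjusted p was 0.0975. TEAD1, a DNA-binding partner of both, stood at 44.1, 46.2 and 56.1 CPM against at least 62.9 CPM. Of 38 tested genes of a Hippo list drawn up after the values were seen, 2 were apart higher (WWTR1 and F3, tissue factor) and 4 lower (YAP1, TEAD1, AJUBA, an inhibitor of the Hippo kinases, and GADD45B), with a median of −0.24.

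Further genes apart lower included ANXA6, a membrane-binding annexin, at 2.504, 2.98 and 0.14 CPM against at least 22.1 CPM, and TUBB3, the neuronal beta tubulin, at 3.76, 0.19 and 9.84 CPM against at least 34.2 CPM. The 3 MKN-45 libraries differed among themselves by more than 10-fold in both, yet each lay below every other library. BAMBI, a decoy receptor of the TGF-beta family, stood at 11.9, 9.13 and 13.6 CPM against at least 43.0 CPM. Of 25 tested antigen presentation genes 1 was apart higher and 2 lower, with a median log2 fold change of −0.32. Against the mean of the lines 8 of them were called higher and 7 lower. HLA-C, a class I antigen-presenting molecule, stood at 78.7, 59.8 and 76.5 CPM against at least 204.5 CPM (3.002-fold below BT-20, adjusted p = 2.92e-08). HLA-DQB1 had no count in MKN-45 and 1.93 to 21.4 CPM elsewhere. HLA genes vary between people and have near-identical relatives, so their counts are uncertain.

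Neighbouring genes differed together at several places. Within 10 Mb of MET on either side 46 genes were tested. Of the 25 whose start lay within 5 Mb, 11 were apart higher, MET itself included, with a median log2 fold change of 1.86. Of the 21 farther out 1 was apart higher and the median was −0.48. The 2 genes apart lower in the window were IMMP2L, 6.01 Mb upstream, and POT1, 8.15 Mb downstream. CAPZA2, an actin capping subunit 0.19 Mb downstream, stood at 389.5, 271.0 and 396.6 CPM against at most 74.8 CPM (5.04-fold above BT-474, adjusted p = 2.69e-10). CAV2, a caveolar protein 0.17 Mb upstream, stood at 115.2, 119.9 and 121.3 CPM against at most 30.1 CPM. TES, a focal adhesion protein 0.46 Mb upstream, stood at 818.8, 945.7 and 799.1 CPM against at most 319.9 CPM. ING3, a chromatin reader, stood at 281 CPM on average against 25.1 to 69.8 CPM in line means, 4.28 Mb downstream.

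3 further places were examined because genes at them ranked high, a choice made after the values were seen. On chromosome 11, CCDC34 (27338512 to 27363215) stood at 2337, 1974 and 2095 CPM against at most 285.0 CPM, 8.89-fold above SW620 (adjusted p = 4.06e-12). The next gene, LGR4 (27365961 to 27472790), a receptor for R-spondins that raises WNT signalling, stood at 418.8, 341.4 and 415.5 CPM against at most 49.97 CPM (8.23-fold above NCI-N87, adjusted p = 2.90e-13). LIN7C, 0.16 Mb downstream of CCDC34, stood at 284.8 to 370.4 CPM against at most 70.4 CPM. These and KIF18A were 4 of 9 genes tested within 1 Mb, with a median of 1.24. Elsewhere on chromosome 11, 9 of 22 genes within 1 Mb of KIAA1731 (now CEP295, a centriole protein) were apart higher, MRE11A, a DNA break nuclease, and TAF1D among them. The 22 include KIAA1731 itself. Small nucleolar RNAs lie inside TAF1D, and without a stated strand their counts cannot be told from its own. On chromosome 12, 8 of 13 genes within 1 Mb of MDM2 were apart higher, MDM2 itself included, with a median of 1.40. MDM2, the ubiquitin ligase of p53, stood at 181.6 to 191.7 CPM against at most 108.1 CPM in SW48.

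Some of the lowest genes lay next to each other in the same way, at places also chosen after the values were seen. In 10 genes the 3 MKN-45 libraries together held 3 counts or fewer while each other line averaged at least 5 CPM. 3 counts over the 3 libraries correspond to 0.159 CPM, which serves as the floor for genes without a count, and these limits cover counting error only. On chromosome 16 near its end, MPG (77007 to 85846), the glycosylase that removes alkylated bases, and NPRL3, a subunit of an mTORC1 inhibitor, had no count, so they were at least 265.9-fold and 94.9-fold lower than in the nearest line. MPG and NPRL3 overlap. ITFG3 (now FAM234A, 234821 to 269963) had 1 count, against 52.1 to 134.7 CPM in line means. LUC7L, a splicing factor between them, stood at 0, 5.22 and 0.14 CPM against at least 56.2 CPM. AXIN1, a scaffold that limits WNT signalling 0.21 Mb from MPG, stood at 7.04, 11.2 and 11.5 CPM against at least 29.9 CPM. Of 37 genes tested within 1 Mb of MPG 7 were apart lower, MPG itself included, with a median of −0.52.

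On chromosome 9, KLHL9 (21329665 to 21335404), a substrate adaptor of a CUL3 ubiquitin ligase, had no count and was at least 168-fold lower than in BT-474. MTAP (21802636 to 21941115), the enzyme that salvages methylthioadenosine, had 1 count, a ratio of 441.9 against BT-474 with a 95% exact Poisson interval of 79.3 to 17454. Beside it the cell cycle inhibitor CDKN2B had no count and CDKN2A 1, but BT-20 had none of either, so these were not apart. BT-20 averaged 44.5 CPM of MTAP. Of 7 genes tested within 1 Mb of MTAP 2 were apart lower, MTAP and KLHL9 themselves, with a median of −7.41. On chromosome 8, HR, a corepressor, FAM160B2 (now FHIP2B) and NUDT18 lie side by side and held 0, 1 and 0 counts. NUDT18 is not among the 10 genes, since other lines averaged as little as 2.66 CPM. HR was at least 101.7-fold lower than in SW620. Of 20 genes tested within 1 Mb of HR 3 were apart lower, HR and FAM160B2 among them, with a median of −0.46. The remaining 3 of the 10 were IRF7, an interferon regulator with no count (at least 44.7-fold below SW620), FRAS1, a basement membrane protein with 1, and ULBP1, a stress ligand for natural killer cells with 2. IRF7, FRAS1 and ULBP1 lie on different chromosomes.

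**Figure D5:**
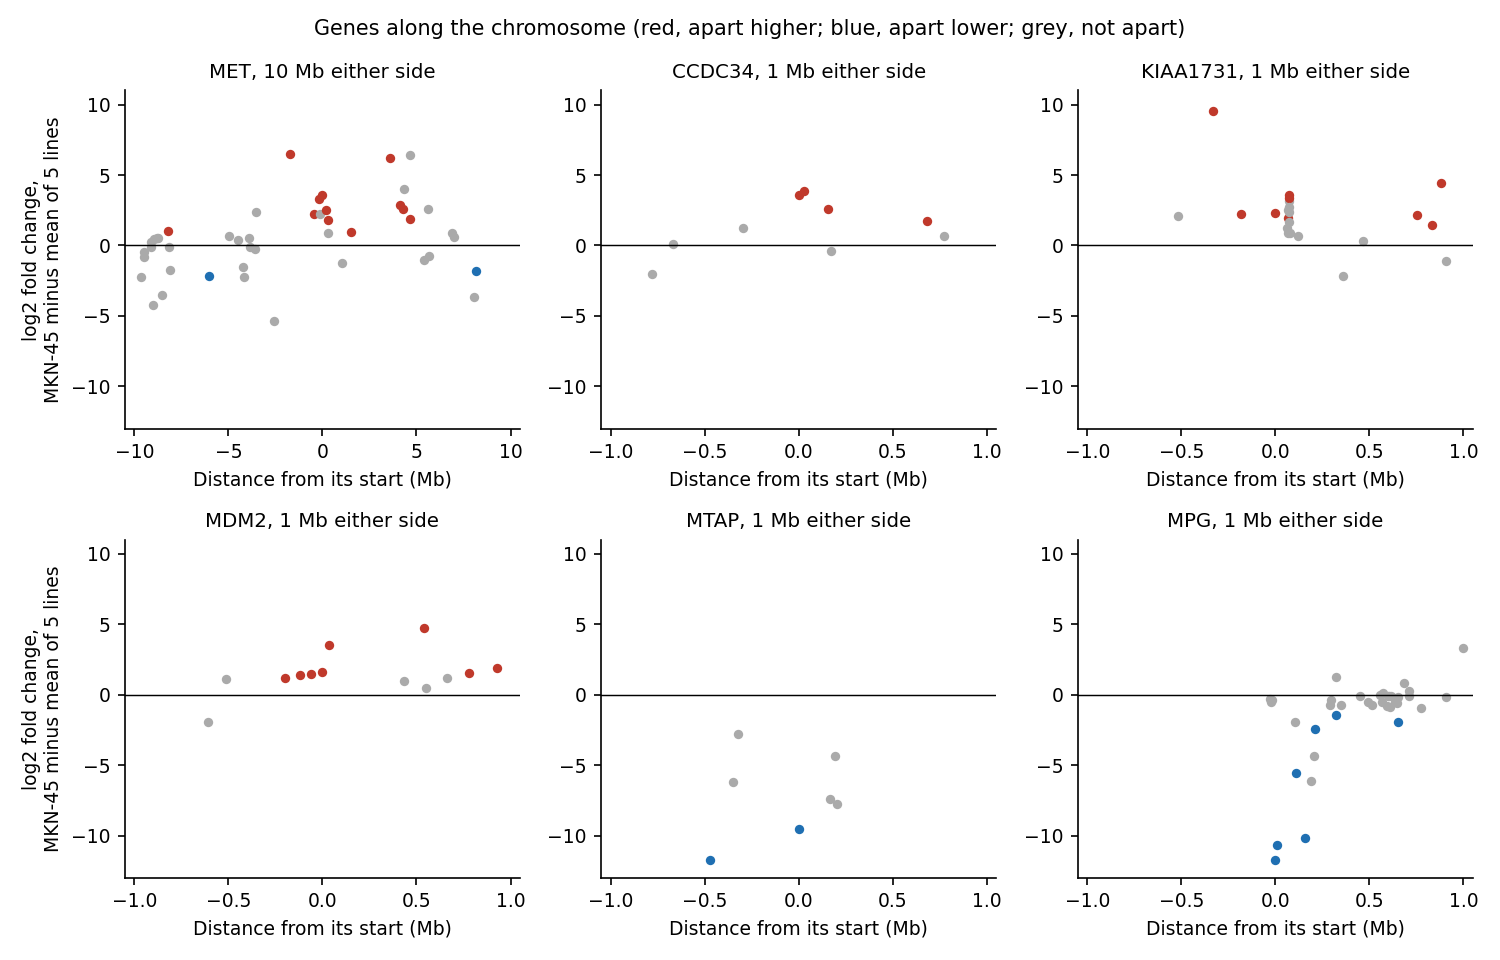
log2 fold change of MKN-45 minus the mean of the 5 lines for every tested gene around 6 genes, by the distance of its start in Mb. Red points are apart higher, blue apart lower, and grey neither. Around MET 11 of the 25 genes within 5 Mb are red, MET itself included. The positions of genes at the floor depend on the fit and are no bound.

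The reverse case was a gene at or near 0 in the other untreated lines. In 18 genes MKN-45 averaged at least 10 CPM and no other line reached 1 CPM. Locus, clone, antisense and similar identifier symbols and sex-specific genes were left out of this count. ADH1C, an alcohol dehydrogenase of the gut and liver, stood at 37.4, 38.2 and 40.2 CPM against at most 1.49 CPM, and reached 4.70 CPM in an NCI-N87 library with afatinib. ALDH1A2, which makes retinoic acid, averaged 28.0 CPM, and CCDC67 (now DEUP1, a factor of centriole multiplication) 17.04 CPM. CCDC67 lies within 1 Mb of KIAA1731 and is 1 of the 9 genes apart higher there. CT83, a cancer-testis antigen, averaged 17.9 CPM. IGFBP7, BAAT, GSTA1, SUCNR1, SCN2A, NPTX1, PLA2G1B, CCBE1, ANKRD18B, LHFPL3 and MPV17L made up the group with SOX21, BARX1 and CLDN18.

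The 12 afatinib libraries of MKN-45, NCI-N87, BT-20 and BT-474 gave the same contrast in libraries that the comparison of controls did not use, against 3 lines in place of 5. There 2220 of 14481 genes were apart higher (15.3%) and 1957 lower (13.5%), and against the mean of the 3 lines 5385 (37.2%) were higher and 5173 (35.7%) lower. Of the 853 genes apart higher in controls 839 were tested and 729 (86.9%) were apart higher again; of the 747 lower ones 745 were tested and 615 (82.6%) were lower again. None was apart in the opposite direction. These shared genes were 32.8% and 31.4% of the longer lists with afatinib. MET stood at 1309, 1269 and 1317 CPM in MKN-45 with afatinib and between 79.4 and 147.0 CPM in the other treated libraries. CEACAM5 stood at 1038 to 1125 CPM against at most 86.5 CPM, PTK7 at 0.15 to 12.9 CPM against at least 162.6 CPM, and YAP1 at 0 to 6.10 CPM against at least 95.8 CPM.

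Of the ATF4 list, 10 of 43 genes were apart lower with afatinib and 2 higher. TRIB3 stood at 7.01 to 10.1 CPM against at least 31.5 CPM, with a log2 difference from the nearest line of −2.02 (−3.46 in controls). CHAC1 was no longer apart, at 7.77 to 12.6 CPM against 9.12 CPM or more. The genes at the floor differed between treated libraries: afatinib 2 of MKN-45 held 22 counts of KLHL9, 22 of MPG, 24 of ITFG3 and 23 of MTAP, while afatinib 1 and 3 held none of these. FRAS1 had 15, 19 and 19 counts in the 3 treated libraries, IRF7 8, 0 and 8, and ULBP1 1, 17 and 7. NPRL3, HR and FAM160B2 had none in any. The source of the reads in afatinib 2 was not tested.

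SW48 and SW620 were sequenced as controls in the first set too, and those libraries put in place of the second set's gave fewer calls, 232 higher and 274 lower, of which 216 and 251 were among the 853 and 747. SW620 control 3 of that set stood apart: it held 350.3 CPM of AGR2 against 0.11 and 0 CPM in its 2 companions, and 1.49 CPM of PTK7 against 88.5 and 73.7. With it left out, a choice made after the values were seen, 557 genes were apart higher and 556 lower, 445 and 462 of them shared. MET, REG4, VSIG1, MUC5AC, CCDC34, LGR4, YAP1, TRIB3, SLC7A5, MPG, KLHL9, MTAP and MKI67 were apart with either choice. MET in the first set's SW620 reached 445.4 CPM, so its difference from the nearest line was 1.82 on the log2 scale. CEACAM5 (1.37, adjusted p = 0.116; SW48 at 409.1 to 434.6 CPM) and PTK7 (−2.41, adjusted p = 0.0847) were not apart with all 6 libraries and were apart without SW620 control 3. AGR2, CLDN18, MST1R, MDM2, GDF15, LTK, SPRR1A and WWTR1 were not apart with either choice. Of the ATF4 list 12 genes stayed apart lower with all 6 and 13 without that library, and of the stomach markers 2 and 3 of the 4. Gut transcription factors went from 7 apart higher to 2 and 3, mucus genes from 7 to 3 and 3, mucin sugar chain genes from 8 to 1 and 3, junction genes from 5 to 0 and 3, intestinal markers from 2 to 0 and 1, and cell division genes from 10 to 3 and 8. Set and sequencing run cannot be told apart here.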

How the data were processed

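RNA of 54 libraries of 6 cancer lines was sequenced from 3′ ends with the Lexogen QuantSeq kit, per the labels' protocols. The deposited values are raw counts per gene and library, made by the authors with Trimmomatic, STAR and featureCounts on hg38, per the submitters' processing notes; the sources used here give no versions, annotation or strand setting. In a first table, 5 lines count reads without a gene; these were not used. The 12 libraries that both tables hold are identical in all 33119 genes, and 18 control libraries of the second set entered the comparison.

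Genes passing filterByExpr (minimum count 10, minimum total 15) were scaled with TMM and fitted with edgeR 4.0.16 in R 4.3.3, with 6 groups and two-sided quasi-likelihood tests. The contrast was MKN-45 minus the equally weighted mean of 5 lines, and each of the 5 pairwise differences. The Benjamini-Hochberg adjustment ran over all 15211 genes, with a threshold of 0.05. With MKN-45 changed in 200 genes of simulated counts, 61% of 2-fold and 84% of 4-fold changes were called apart. No unchanged gene was called apart, and 11 were called against the mean of the lines. Only MKN-45 was changed, so how often a gene is wrongly called apart where the other lines differ among themselves was not tested. Locus, clone and similar identifier symbols were passed over by the naming rules. Genes named were the 15 of largest difference from the nearest line in each direction (at least 50 CPM in MKN-45, or 20 CPM in the lowest other line), up to 4 members per list and direction, and a few set receptors and markers. Others were named after their values were seen: members completing a list, neighbours, and genes at or near 0. Some list members are not reported here by name.

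The comparison, members and gene lists were chosen with earlier results of these data known. Gene positions and promoter sequences came from RefSeq tables of GRCh38.p14, matched by symbol. Alternatives were DESeq2 1.42.0, its size factors, no filter on low counts, robust dispersion, a fit with all 42 libraries of the second set, a replicate block, a 2-fold minimum, the first set's SW48 and SW620 controls, and leaving out each library. Figures were drawn with matplotlib 3.10.9 in Python 3.11.15. Depth was 5106615 to 12806042 counts per control library; intervals and floors cover counting error only.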

Additional observations from a re-analysis of the deposited data

How the results depend on the processing

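The number of genes apart in untreated MKN-45 depended most on the first set's controls and on a fold minimum. With the first set's SW48 and SW620 controls 232 genes were apart higher and 274 lower; without SW620 control 3 of that set, chosen after the values were seen, 557 and 556. With a 2-fold minimum the numbers were 344 and 322, against the mean of the lines 2472 and 1918, and with afatinib 2663 and 2763. Leaving out each library in turn gave 702 to 980 apart higher and 661 to 829 lower, the highest without NCI-N87 control 1. The same gave 4818 to 5426 higher and 4010 to 4555 lower against the mean of the lines, and 5150 to 5538 and 4869 to 5195 with afatinib. The cause was not tested.

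Replicate numbers are shared between lines. Across 15 pairs of same-numbered MKN-45 and other libraries the correlation of their deviations was −0.15 to 0.04, none over 0.1, and 5 correlated best with their own number. With a replicate block 782 genes were apart higher and 702 lower, 775 and 695 of them shared with the fit without it.

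Of 124 named genes 54 lost no call and did not reverse under any alternative fit. CDH1 is among the 54, although it had no call to lose. The 2-fold minimum was not applied to named genes. Over 3224 gene and setting pairs 221 lost a call and 2 gained one (CDH1). Both choices of the first set's controls turned DSP to −0.30 and ITGA2 to −0.093 and −0.091. With DESeq2 UPK1B (4.47, adjusted p = 0.0614) and GSTA1 (5.65, adjusted p = 0.748) lost their calls. Counts of 3 or fewer limit the genes at the floor.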

Other observations

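Counts for other gene groups in untreated MKN-45 were mostly small, and 5.61% of all genes tested were apart higher and 4.91% lower. Of 29 tested glycolysis genes 4 were apart higher and 1 lower, with a median log2 fold change of 0.69. PKM, pyruvate kinase, stood at 2432, 2702 and 2333 CPM against at most 1395 CPM in any other library, and ALDOA, aldolase, at 915.1, 728.4 and 844.8 CPM against at most 454.1 CPM. HK1, a hexokinase, was the lower one, at 36.9 to 40.8 CPM against at least 57.6 CPM. Of 30 tested p53 targets 3 were apart higher and none lower (median 0.47): MDM2, AEN, an exonuclease, and GDF15, a stress cytokine. GDF15 stood at 1683, 1525 and 1657 CPM against at most 795.2 CPM. With the first set's SW48 and SW620 controls its difference from the nearest line was 0.26 on the log2 scale (edgeR adjusted p = 1), with or without SW620 control 3 of that set. Among glycolysis genes PKM and ALDOA were not apart with all 6 of those controls.

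Of 53 tested genes of drug, alcohol and aldehyde metabolism 8 were apart higher and 3 lower, with a median of 0.58. Beside ADH1C and AKR1C1, CYP1B1, a cytochrome that oxidises estrogens and polycyclic compounds, stood at 92.9 to 102.4 CPM against at most 50.4 CPM, and GSTK1, a mitochondrial glutathione transferase, at 40.5 to 43.2 CPM against at least 58.4 CPM. Of 23 tested S100 and annexin genes 3 were apart higher and 3 lower (median 0.80). S100A10, the partner of annexin A2, stood at 1347, 1059 and 1370 CPM against at most 451.0 CPM. ANXA3 stood at 8.01 to 9.84 CPM against at least 17.3 CPM. CLDN2, a pore-forming claudin, stood at 83.4, 95.5 and 82.9 CPM against at most 29.2 CPM, and was 1 of 5 apart higher among 38 tested junction genes (median 0.51). Of 26 tested WNT feedback genes 3 were apart higher: LGR4, CD44 and DKK1, a secreted WNT inhibitor, at 15.8, 12.1 and 20.4 CPM against at most 3.10 CPM. DKK1 was not apart with the first set's controls (adjusted p = 0.352, and 0.148 without SW620 control 3). None of the 22 tested chemokines and cytokines and none of the 16 tested breast markers was apart in edgeR's test, although 9 and 5 of them were called higher, and 2 and 3 lower, against the mean of the lines.

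Calls were unevenly spread over chromosomes, a description made after the values were seen. On chromosome 22, 64 of 339 tested genes (18.9%) were apart lower and 3 higher, with a median log2 fold change of −0.69. On chromosome 15, 72 of 469 (15.4%) were apart higher and 10 lower, with a median of 0.43. Chromosomes 4, 16 and 20 had 10.6%, 10.6% and 10.3% of their tested genes apart lower, against 4.91% over all genes.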
